A study of Mus musculus with 8 samples.

Results

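Tmem47, Vcam1, Igf2r, Thbs4, Chil4, Tox, Glyat, Gpx8 and Prxl2a were 9 genes whose signal was higher in mouse cells carrying the delFG1 deletion mutant of NUP98-HOXA9 than in cells carrying the full-length fusion. They were chosen by that measured difference on the arrays described here: in each, both delFG1 arrays lay above both full-length arrays, with an unadjusted limma p under 0.01, limits that some other genes also met. Each gene was read by 1 probe set, so 9 of the 21789 probe sets with a single gene symbol, which cover 19938 genes, are described. The delFG1 and full-length values below are therefore a description of the choice, with no test. The tests are kept to comparisons whose difference of means these limits did not use.

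Total RNA of C57BL/6 mouse cells was measured on 8 whole-transcript GeneChip arrays, 2 for each of 4 groups: cells with an empty vector, with full-length NUP98-HOXA9, with the mutant delFG1 and with the mutant delFG2. The purpose of the design was to find genes regulated through the NUP98 part of the fusion. The sources used here do not give the kind of cell, the age of the mice, the vector or the residues that each deletion removes, so the groups carry the names of the labels. Each group holds an array numbered 1 and an array numbered 2, and no label ties these to separate cultures or animals, so the p-values speak only of how far these arrays spread, and that spread may be technical.

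NUP98-HOXA9 is a leukaemia fusion in which the phenylalanine-glycine (FG) repeats of the nucleoporin NUP98 are joined to the homeodomain of the transcription factor HOXA9. The FG repeats recruit transcriptional coactivators and chromatin regulators, and the homeodomain brings the protein to DNA, often next to PBX and MEIS proteins. Deleting a stretch of FG repeats is thus a way to ask which target genes need it. The genes described here belong to no single pathway: they encode membrane and adhesion proteins (Tmem47, Vcam1, Igf2r), secreted proteins (Thbs4, Chil4), a nuclear factor (Tox) and metabolic or redox enzymes (Glyat, Gpx8, Prxl2a).

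Signals are the deposited intensities, on a linear scale; differences are on the scale log2(intensity + 1), where 1 unit is close to a doubling; the added 1 makes the change of low signals look slightly smaller. The median intensity of an array lay between 80.7 and 83.2. The closest pair of all arrays was the full-length and the delFG1 array numbered 2, with r = 0.9986 across probe sets and a median absolute gap of 0.06 on the log2 scale, against 0.9973 and 0.078 for the same groups in number 1. Values of number 1 and number 2 are therefore given apart.

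**Figure D1:**
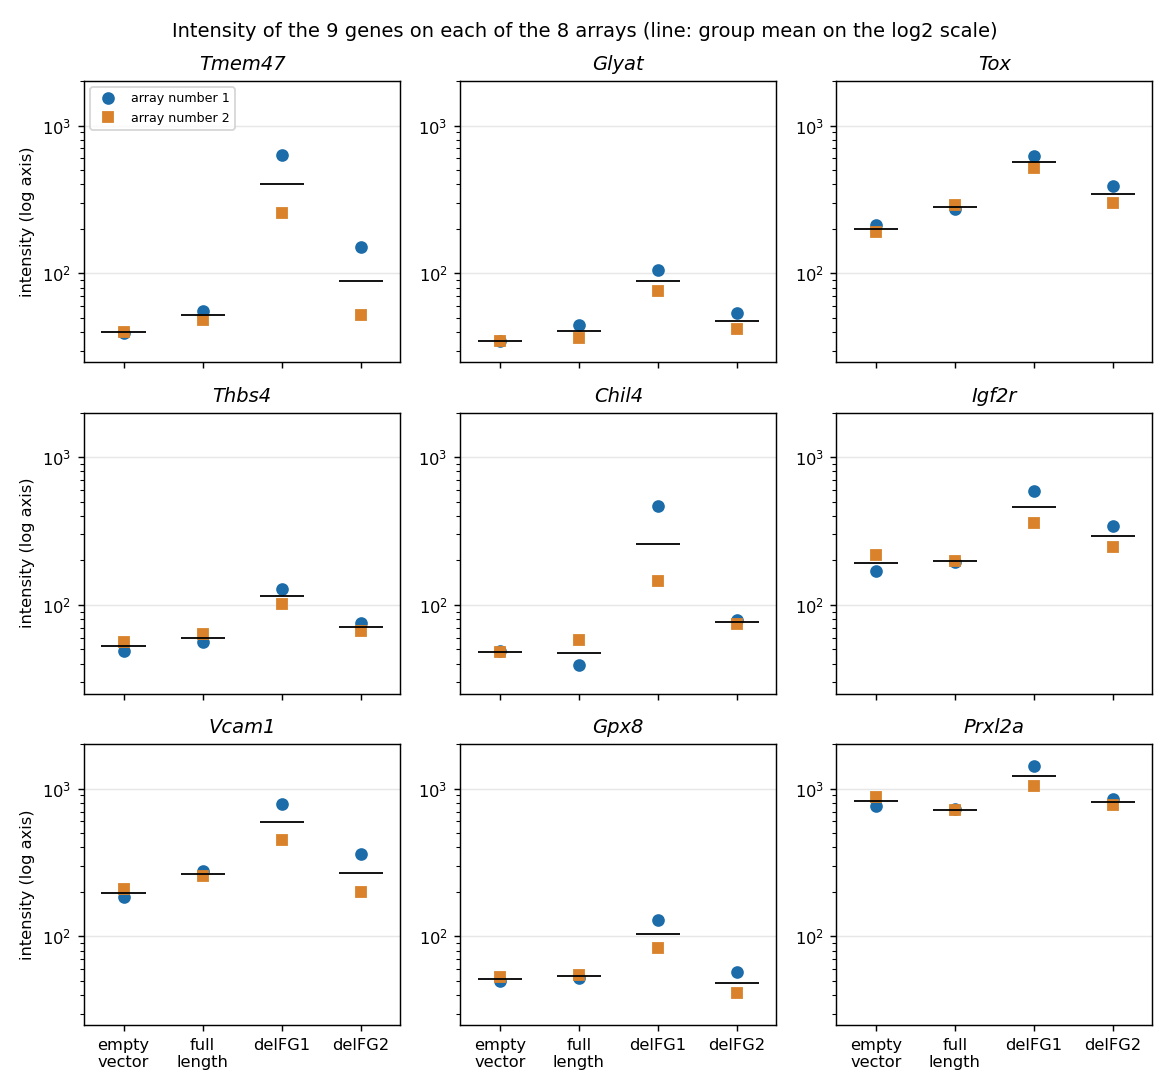
Intensity (log axis) of each of the 9 genes on each of the 8 arrays, by group; circles are arrays numbered 1, squares arrays numbered 2, and the line is the group mean on the log2 scale. In every panel both delFG1 arrays lie above the other 6 arrays, and the delFG1 array numbered 1 lies above that numbered 2.

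Tmem47, a multi-pass membrane protein of cell junctions in the family of PMP22, the EMP proteins and the claudins, had the largest difference of group means among the 9. Its intensity was 39.5 and 40.0 in the empty vector arrays numbered 1 and 2, and 55.5 and 48.5 with the full-length fusion. It was 635.0 and 254.5 with delFG1. With delFG2 it was 150.6 in number 1 but 52.5 in number 2. The delFG1 arrays thus stood clear of all others, and delFG2 split, with 1 array between the full-length and delFG1 levels and 1 beside the full-length level. The difference between delFG1 and full length was 3.49 on the log2 scale in number 1 and 2.37 in number 2, which are 11.25-fold and 5.16-fold. As group means, its log2 signal was 8.66 ± 0.93 (SD, n = 2) with delFG1 and 5.73 ± 0.13 (SD, n = 2) with the full-length fusion.

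Vcam1, an adhesion molecule of the immunoglobulin superfamily on endothelium, stroma and some macrophages that binds the integrin with the Itga4 chain, also had its highest group mean with delFG1. Its intensity was 185.1 and 208.5 with the empty vector, 275.4 and 256.6 with the full-length fusion, and 792.8 and 446.1 with delFG1. With delFG2 it was 362.2 in number 1 and 201.0 in number 2. The full-length arrays lay above both empty vector arrays and below both delFG1 arrays, whereas of the delFG2 arrays number 1 lay above the full-length arrays and number 2 between the empty vector arrays. The difference between delFG1 and full length was 1.52 in number 1 and 0.80 in number 2.

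Igf2r encodes the cation-independent mannose 6-phosphate receptor, which sorts lysosomal enzymes and clears insulin-like growth factor 2 from the cell surface. In the mouse it is an imprinted gene, expressed from the maternal allele, with the antisense RNA Airn made from the paternal one. Its intensity was 169.1 and 217.4 with the empty vector, 194.9 and 199.3 with the full-length fusion, 590.2 and 360.4 with delFG1, and 343.4 and 245.7 with delFG2. Full-length and empty vector arrays overlapped, and both delFG2 arrays lay between them and delFG1. Airn itself read 34.1 and 36.8 with the full-length fusion and 43.9 and 34.8 with delFG1, overlapping values.

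Of the secreted proteins, Thbs4, a thrombospondin of the extracellular matrix, had an intensity of 48.9 and 56.2 with the empty vector and 55.7 and 63.6 with the full-length fusion. It was 128.3 and 101.5 with delFG1 and 75.1 and 66.8 with delFG2. Empty vector and full-length arrays overlapped, while delFG2 lay above both groups and delFG1 above delFG2.

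Chil4, a chitinase-like lectin without chitinase activity, was 48.8 and 47.9 with the empty vector and 39.2 and 57.6 with the full-length fusion. With delFG1 it was 466.2 in number 1 and 144.5 in number 2, and with delFG2 78.7 and 73.8. The 2 delFG1 arrays were further apart for Chil4 than for any of the other 8 genes, by 1.68 on the log2 scale, and the difference from full length was 3.54 in number 1 and 1.31 in number 2. Its log2 signal was 8.03 ± 1.19 (SD, n = 2) with delFG1 and 5.60 ± 0.38 (SD, n = 2) with the full-length fusion. Its neighbour on chromosome 3 and close paralogue Chil3, a product of myeloid cells, was higher in number 2 in both groups, with 963.2 in number 1 and 2593.9 in number 2 with the full-length fusion, and 679.8 and 2186.0 with delFG1. Chil4 was likewise higher in number 2 with the full-length fusion, but lower in number 2 with delFG1. Chil3 did not differ past the threshold between delFG1 and full length (-0.37, limma adjusted p = 1.0). How far the Chil4 probe set also reads Chil3 RNA was not tested.

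Tox, a nuclear protein with an HMG box known for its part in T cell development, was the gene of the 9 whose 4 groups were fully separated. Its intensity was 211.7 and 189.7 with the empty vector, 270.7 and 291.6 with the full-length fusion, 391.7 and 296.8 with delFG2, and 622.2 and 519.2 with delFG1. No array of a group overlapped with the next group in this order, although full length and delFG2 in number 2 were only 0.03 apart on the log2 scale.

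Glyat, a mitochondrial acyltransferase of liver and kidney that joins glycine to acyl-CoA, read 34.7 in both empty vector arrays. It was 44.6 and 36.7 with the full-length fusion, 53.6 and 42.2 with delFG2, and 105.1 and 75.6 with delFG1. Full-length and delFG2 arrays overlapped, and the delFG1 arrays did not overlap with any other group. The difference between delFG1 and full length was the most even across numbers among the 9 genes, at 1.22 in number 1 and 1.02 in number 2.

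Gpx8, a peroxidase of the endoplasmic reticulum membrane, was 50.3 and 53.1 with the empty vector, 52.7 and 55.0 with the full-length fusion, 128.7 and 83.9 with delFG1, and 57.5 and 41.2 with delFG2. The delFG2 arrays enclosed those of both other groups below delFG1, and only delFG1 stood apart. Prxl2a, a peroxiredoxin-like redox protein, was 767.1 and 872.1 with the empty vector, 729.8 and 713.3 with the full-length fusion, 1412.8 and 1035.9 with delFG1, and 853.7 and 779.9 with delFG2. Here the full-length arrays were the lowest, and empty vector and delFG2 overlapped.

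Across the 9 genes, delFG1 exceeded all other arrays in 9 of 9, which the choice largely fixed; of all tested probe sets 3.44% show this order. The difference between delFG1 and full length was larger in number 1 than in number 2 in 9 of 9 genes (52.9% of all tested probe sets). The delFG1 array numbered 1 was above that numbered 2 in 9 of 9 genes, and so was the delFG2 array numbered 1 above its partner, whereas 4 of 9 genes did so with the full-length fusion and 2 of 9 with the empty vector. The share over all tested probe sets was 46.0%, 46.1%, 46.5% and 45.4% in these 4 groups.

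**Figure D2:**
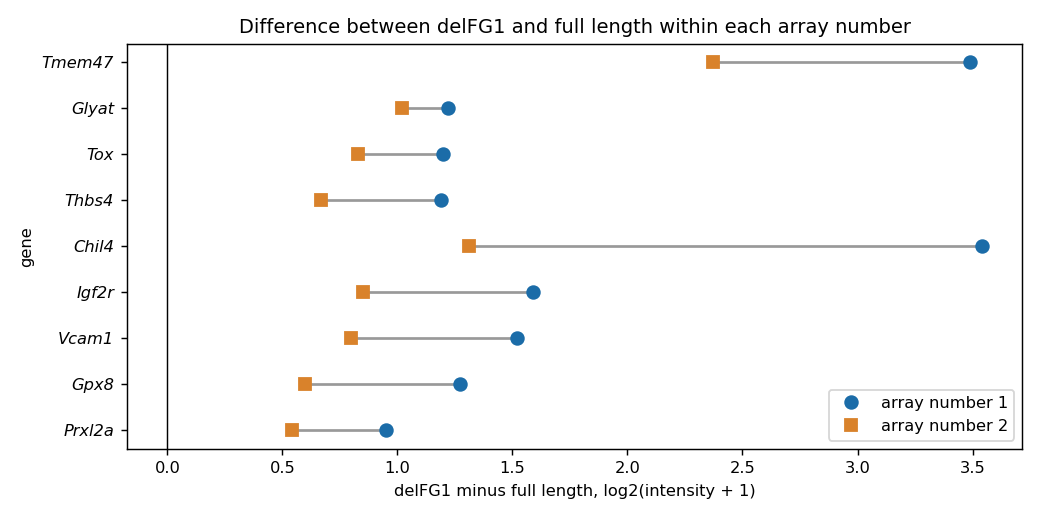
Difference between delFG1 and full length on the log2(intensity + 1) scale for each of the 9 genes, between the arrays numbered 1 (circles) and between the arrays numbered 2 (squares). All differences are above 0, and for every gene the circle lies to the right of the square; Chil4 shows the widest gap (3.54 against 1.31).

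The values that chose the genes are given here as a description, not as a test. Vcam1 lay just inside the limit, with the largest unadjusted p of the 9, 0.00465, in the fit without the array number as a block (a term for the number). After adjustment none of the 9 genes passed in that fit, the lowest limma adjusted p being 0.277 (Glyat and Thbs4). The 2 probe sets of all tested that passed there were lower with delFG1. With the block 4 of the 9 genes passed (Tmem47, Glyat, Tox and Thbs4) and 5 did not. Among genes not in the set, the largest differences were 1.64 for the casein gene Csn2, 1.13 for the growth factor gene Igf1 and 1.06 for the secreted zinc-binding glycoprotein gene Azgp1. Azgp1, with an unadjusted p of 0.0114, lay just outside the limit and Igf1 further out, with 0.0298. Csn2, with 0.0007, met the limit and is not in the set.

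The promoters of these genes varied widely in base composition. RefSeq promoter windows of build GRCm38.p6, from 250 bases before to 50 after a start, were matched for 7 of the 9 genes (not Tox and Vcam1). The windows of the 2 genes with the widest differences are shown because 1 is rich and 1 is poor in CpG beside the median window, with each CpG dinucleotide in capitals; they read 5′ to 3′ on the strand of the gene. Tmem47, at chrX:81070394-81070693 on the plus strand, holds 29 CpG and 68.7% G and C; Chil4, at chr3:106219430-106219729 on the minus strand, holds 2 CpG and 36.0% G and C.
Tmem47: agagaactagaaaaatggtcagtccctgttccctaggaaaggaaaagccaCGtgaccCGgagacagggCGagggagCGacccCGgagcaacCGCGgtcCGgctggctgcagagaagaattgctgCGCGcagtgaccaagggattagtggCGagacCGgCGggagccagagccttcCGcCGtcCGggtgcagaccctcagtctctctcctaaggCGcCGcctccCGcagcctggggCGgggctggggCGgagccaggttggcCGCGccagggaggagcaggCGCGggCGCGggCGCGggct
Chil4: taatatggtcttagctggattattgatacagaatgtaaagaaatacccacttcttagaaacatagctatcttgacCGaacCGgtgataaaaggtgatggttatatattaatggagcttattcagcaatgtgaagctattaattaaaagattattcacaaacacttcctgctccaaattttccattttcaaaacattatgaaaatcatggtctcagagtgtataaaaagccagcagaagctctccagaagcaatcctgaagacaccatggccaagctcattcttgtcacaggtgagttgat

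The median over all 32851 windows was 7.0 CpG and 52.7% G and C. Igf2r (34 CpG) and Thbs4 (24 CpG) resembled Tmem47, and Glyat (1 CpG) resembled Chil4. The letters TGATTTAT, to which PBX and HOX proteins bind together, were in none of the 11 windows of these genes on either strand (0.977% of all windows hold them), nor was TGACGTCA, the cyclic AMP response element (1.79%). TGACAG, a MEIS motif that 19.2% of windows hold, was in 3 of the 5 Prxl2a windows, of which several overlap, and in no window of the other genes. TTTATGG, a HOXA9 motif that 2.75% of windows hold, was found once, on the reverse strand of the Thbs4 window, beginning 31 bases before the start. That stretch, within chr13:92794769-92795068 on the minus strand, is shown with the motif in capitals.
Thbs4: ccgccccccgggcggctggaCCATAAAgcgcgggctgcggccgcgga

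These matches describe the letters in the windows only. The genes lie on chromosomes 3, 4, 13, 14, 17, 19 and X, and their neighbours on the chromosome were compared in the same way. Over the 18 nearest measured protein-coding genes on either side, delFG1 minus full length ranged from -0.37 (Chil3) to 0.24 (Extl2), with a median of 0.02, and 0 of 18 passed by limma with or without the block; an unadjusted p under 0.05 was found for 0 of them without the block (2.07% of all tested probe sets) and 2 with it (4.07% of all).

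Cells with delFG2 and with the empty vector gave a comparison of means that was no part of the stated limits of the choice. How the 9 were picked among the genes that met those limits is not given here. Tmem47 was higher with delFG2 than with the empty vector by 1.15 ± 0.49 (log2 difference ± SE), Tox by 0.76 ± 0.16, Chil4 by 0.65 ± 0.44, Igf2r by 0.60 ± 0.25, Vcam1 by 0.46 ± 0.31, Glyat by 0.44 ± 0.17 and Thbs4 by 0.43 ± 0.14. Gpx8 (-0.09 ± 0.20) and Prxl2a (-0.00 ± 0.15) had values near 0. The size of the difference depended on which delFG2 array was kept. Without number 1 it was 0.39 for Tmem47, 0.56 for Tox, 0.36 for Igf2r, 0.28 for Glyat and 0.03 for Vcam1. Without number 2 it was 1.90 for Tmem47, 0.96 for Tox, 0.84 for Igf2r, 0.61 for Glyat and 0.88 for Vcam1. The median over the 9 genes was 0.46, beside 0.01 over all tested probe sets.

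In 6 of the 9 genes both delFG2 arrays lay above both empty vector arrays, an order that 16.3% of all tested probe sets share; the exceptions were Vcam1, Gpx8 and Prxl2a. An unadjusted limma p under 0.05 with a higher signal in delFG2 was found for 5 of the 9 genes (Tmem47, Glyat, Tox, Thbs4 and Igf2r), against 2.29% of all tested probe sets. After Benjamini-Hochberg adjustment over all probe sets 0 of the 9 passed by limma without the block, where 0.00459% of all did; the lowest adjusted p of the 9 was that of Tox, 0.943.

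With the array number as a block Tox rose with delFG2, with an adjusted p of 0.0307, and was the 1 gene of the 9 to pass (log2 difference 0.76 ± 0.12, SE, higher in both array numbers); 0.106% of all probe sets were higher and 0.505% different in either direction in that fit. That call was lost without the delFG2 array numbered 1 (0.62, adjusted p = 0.465), without the empty vector array numbered 1 (adjusted p = 0.076), without either full-length array (0.055 and 0.0578) and without an intensity trend (0.07). Over 13 other settings of the block fit it was kept in 8, with adjusted p-values from 0.0112 to 0.465. Without the empty vector array numbered 2, the block fit also called Tmem47 (1.66), Igf2r (0.97), Vcam1 (0.84) and Glyat (0.62), with adjusted p-values between 0.00928 and 0.0296. The spread that limma used in these tests was estimated from all 8 arrays, including those that chose the genes. In a limma fit of the 4 delFG2 and empty vector arrays alone, the adjusted p of each of the 9 genes was 1.0. The unadjusted p there was under 0.05 for Tmem47, Glyat, Tox, Thbs4, Chil4 and Igf2r, from 0.000349 (Chil4) to 0.0255 (Tmem47). Of all 21789 tested probe sets, 721 had an unadjusted p under 0.05 in that fit, in either direction.

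**Figure D3:**
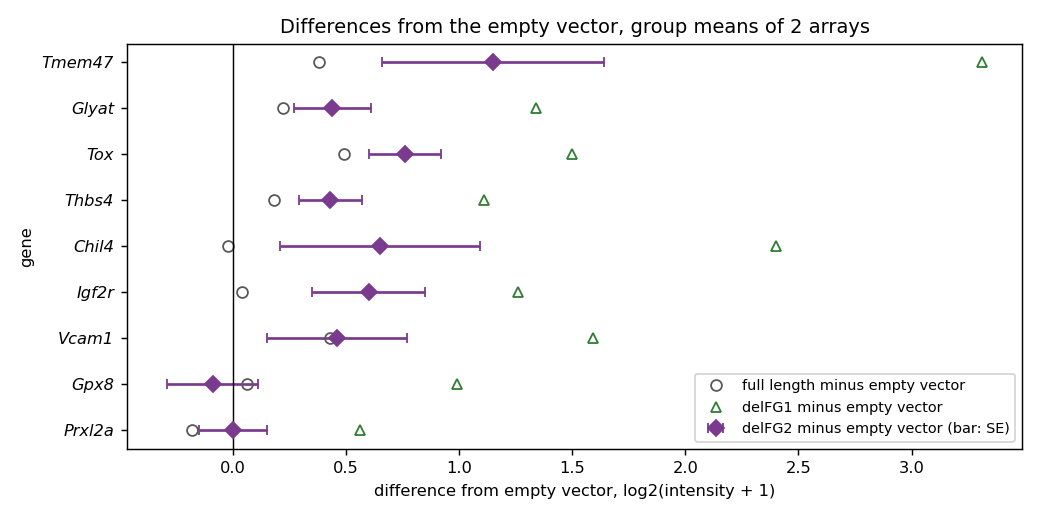
Difference of each group mean from the empty vector mean on the log2(intensity + 1) scale for the 9 genes: diamonds with bars are delFG2 with its SE, open circles full length, open triangles delFG1. The delFG2 diamonds run from -0.09 (Gpx8) to 1.15 (Tmem47) and lie left of the delFG1 triangles for all 9 genes.

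Set beside each other, delFG2 took a place between the full-length fusion and delFG1 for most of the genes. It had the second highest of the 4 group means in 7 of 9 (29.6% of all tested probe sets), with Gpx8 and Prxl2a as the exceptions. In number 1 the order full length, delFG2, delFG1 held in 9 of 9 genes (15.1% of all), and in number 2 in 7 of 9 (12.1% of all), Vcam1 and Gpx8 departing from it. The choice fixed delFG1 above full length, so these shares of all probe sets are no like base for the counts. The order delFG2 above full length held in 9 of 9 genes in number 1 (49.9% of all) and 7 of 9 in number 2 (47.8% of all). Low full-length values helped to choose the genes, so these shares are no like base either. The gain of delFG2 over full length in number 1, on the linear scale, was between 6.4% (Gpx8) and 37.6% (Igf2r) of the gain of delFG1, so it was no constant share. In number 2 it ran from -47.7% (Gpx8) to 28.8% (Igf2r). These comparisons share arrays with the one that chose the genes and were not tested.

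Between the full-length fusion and the empty vector, the differences of the 9 genes lay between -0.18 (Prxl2a) and 0.49 (Tox) with a median of 0.18, where the median of all tested probe sets was 0.02. Both full-length arrays were above both empty vector arrays in 4 of 9 genes (Tmem47, Glyat, Tox and Vcam1; 23.4% of all probe sets), and below them in 1, Prxl2a (15.6% of all). Since low full-length values helped to choose the genes, nothing is read from these counts. The same holds for delFG1 against the empty vector, where the differences ran from 0.56 (Prxl2a) to 3.31 (Tmem47).

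The array number is balanced over the groups, so its difference of means did not enter the difference that chose the genes. It was not wholly apart from the choice, since the unadjusted p of the choice used the spread between numbered arrays within groups. Fitted over all groups, 2 of the 9 genes were lower in the arrays numbered 2: Tmem47 fell by 0.75 ± 0.21 (SE) on the log2 scale, with a limma adjusted p of 0.0481, and Glyat fell by 0.27 ± 0.08, with an adjusted p of 0.0423. Of all tested probe sets, 4.75% were lower in number 2. The other 7 genes had values between -0.40 (Vcam1, adjusted p = 0.121) and -0.03 (Thbs4, 0.892). For Tmem47 the gap between numbers was not the same in every group: number 1 minus number 2 was -0.02 with the empty vector, 0.19 with full length, 1.32 with delFG1 and 1.5 with delFG2. For Glyat the gap was -0.0 with the empty vector, 0.27 with full length, 0.47 with delFG1 and 0.34 with delFG2. Both calls were lost when any array of the full-length, delFG1 or delFG2 group was left out, with adjusted p-values of up to 0.242 for Tmem47 and 0.176 for Glyat.

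The genes resembled each other over the 8 arrays, in part by their choice. Pearson's r between pairs of the 9 genes, over 36 pairs, ran from 0.771 (Tox and Prxl2a) to 0.987 (Tmem47 and Glyat). Among 545 genes whose signal ranged over at least 1 log2 unit, the 3 most alike to each gene were taken, and 20 of these 27 places went to other genes of the set. The remaining places went to Pde9a, a cyclic GMP phosphodiesterase (nearest to Gpx8, r = 0.948, and among the 3 for Chil4 and Prxl2a), Fst, the activin antagonist follistatin (nearest to Prxl2a, r = 0.963, and among the 3 for Chil4), the tetraspanin gene Tspan2 (nearest to Tox, r = 0.961) and the glutathione transferase gene Gstt1 (among the 3 for Vcam1, r = 0.964). Their own differences between delFG1 and full length were 0.66 for Pde9a, 0.74 for Fst, 0.56 for Tspan2 and 0.90 for Gstt1. All points share the same 8 arrays, so these correlations are a description.

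Relatives of the 9 genes, by family or pathway, mostly had differences near 0. Of 95 measured relatives in 9 lists, 0 passed in delFG1 against full length by limma without the block (0.00918% of all tested probe sets did). Nor did any of the 9 genes. Among the relatives Igfbp7 alone passed with the block (0.078% of all did), with a log2 difference of -0.71 and an adjusted p of 0.0197. An unadjusted p under 0.05 was found for 4 of the 95 without the block and 6 with it, beside 2.07% and 4.07% of all. The median over the relatives was 0.01, beside 0.00 for all tested probe sets. In delFG2 against empty vector 0 of the 95 passed without the block (7 had an unadjusted p under 0.05, as had 4.43% of all tested probe sets), and with it, where 0.505% of all passed, Pmp22 (-0.74, adjusted p = 0.0101) and Cd44 (-0.42, 0.0439) fell. In full length against empty vector 0 of the 95 passed without the block (0.124% of all probe sets did); 14 had an unadjusted p under 0.05, as had 9.54% of all; with it 2 rose and 11 fell, where 6.61% of all passed. Among the 11 were Cldn1 (-1.71), Pmp22 (-1.42), Chil3 (-1.25), Cd44 (-0.57) and Thbs1 (-0.49).

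For Tmem47, 15 relatives of the PMP22, EMP and claudin family had differences between delFG1 and full length from -0.28 (Emp2) to 0.09 (Cldn5). For Vcam1, 16 integrin chains and adhesion molecules ranged from -0.11 (Itgb7) to 0.20 (Itga4). Itga4, a chain of the Vcam1 receptor, was well expressed throughout, with 1671.5 and 1571.8 with the full-length fusion and 2030.8 and 1696.8 with delFG1, and did not pass. Its partner chain Itgb1 had a difference of 0.02.

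For Igf2r, 18 genes of the insulin-like growth factor and mannose 6-phosphate pathway held the widest range, from -0.71 (Igfbp7, a secreted binding protein) to 1.13 (Igf1, a ligand of the Igf1r receptor). Igf1 read 110.2 and 89.2 with the full-length fusion and 382.0 and 124.1 with delFG1. It was high on the delFG1 array numbered 1 and close to the other arrays in number 2, and it did not pass (adjusted p = 1.0, and 0.477 with the block). Igf2, the ligand that Igf2r clears, had overlapping values of 60.4 and 52.4 with full length and 58.9 and 60.4 with delFG1.

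For Tox, the relatives Tox2 (-0.05), Tox3 (0.07) and Tox4 (0.11) did not pass, nor did the 4 other thrombospondins beside Thbs4, between -0.07 (Thbs2) and 0.08 (Thbs1). The 8 chitinases and chitinase-like genes beside Chil4 ranged from -0.37 (Chil3) to 0.13, and 10 genes of glycine and acyl-CoA conjugation beside Glyat from -0.26 (Gcat) to 0.15 (Acsm2). Of 7 glutathione peroxidases beside Gpx8, Gpx3, the secreted plasma form, had the largest value, 0.51 (adjusted p = 0.285 with the block), with 1034.6 and 1711.0 in full length and 1683.6 and 2119.3 in delFG1. The 14 peroxiredoxin and thioredoxin genes ranged from -0.04 to 0.28 (Prxl2b), and 0 passed.

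**Figure D4:**
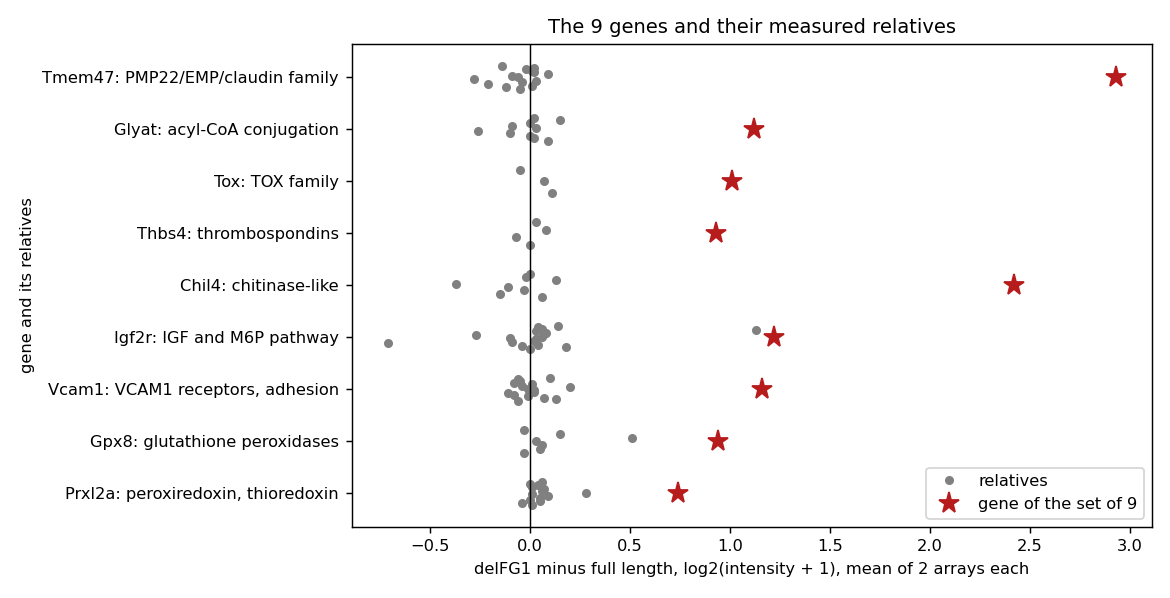
Difference between delFG1 and full length (log2(intensity + 1), means of 2 arrays each) for each of the 9 genes (star) and its measured relatives (dots), 1 row per family or pathway. The stars lie between 0.74 and 2.93, a place that their choice by this same difference largely fixed. Of the 95 dots 92 lie within 0.5 of 0, where the median of all tested probe sets is 0.0. The share of all tested probe sets within 0.5 of 0 is not given. Igf1 (1.13), Gpx3 (0.51) and Igfbp7 (-0.71) are the dots furthest out.

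Markers of cell types that could supply such transcripts were read on the same arrays; the labels give no cell type to check. The cells carried strong signals of myeloid progenitor and granulocyte genes, such as Mpo at 8775.7 and 8451.0 with full length and 8797.9 and 8218.1 with delFG1. The summed intensity of 10 fibroblast and stroma markers was 689 to 745 with full length and 698 to 719 with delFG1. With delFG1, Dcn (30.5 to 32.1), Lum (24.2 on both arrays), Postn, Cxcl12 and Pdgfra read below an array median of at least 80.7. Col1a1, Col1a2, Col3a1, Pdgfrb and Fn1 read above it, from 96.2 (Fn1) to 125.2 (Col1a1). That median covers all 28853 probe sets, of which 5443 have no gene symbol, so a value above it is no sign of expression by itself. The summed signal of 7 endothelial markers was 1126 to 1262 with full length and 1186 to 1331 with delFG1, most of it from Pecam1, and Cdh5 read 52.4 and 54.9 with delFG1. For 12 macrophage markers the sum was 7301 to 8703 and 6672 to 8392, and for 7 T and innate lymphoid markers 709 to 760 and 617 to 815. Most of the lymphoid sum came from Il7r, at 423.0 and 472.3 with full length and 347.3 and 538.6 with delFG1, with Cd3e at 60.9 and 57.1 with delFG1. Of the 47 markers in the 5 lists, 0 passed by limma in delFG1 against full length with or without the block. An unadjusted p under 0.05 was found for 0 without the block (2.07% of all tested probe sets) and 4 with it (4.07% of all). The 4 were Camp (0.31), Cd34 (-0.25) and the macrophage markers Adgre1 (-0.22) and Cd68 (-0.13). What part these cells have in the values of the 9 genes was not tested. In bulk RNA, fewer cells of a type and less RNA per cell cannot be told apart.

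In the empty vector arrays 5 of the 9 genes (Tmem47, Glyat, Thbs4, Chil4 and Gpx8) read below the median intensity of the array. The deposited table holds no detection calls, so how far those low signals stand above background is not known.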

How the data were processed

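Total RNA of 8 samples was purified on RNeasy columns and biotin-labelled with a whole-transcript GeneChip kit, per the labels' protocols. The authors deposited 1 table of linear intensity values for 28853 probe sets; the sources used here do not give the background correction, summarisation or normalisation. Values were analysed as log2(intensity + 1) with no further scaling. Genes were named from the platform annotation: 21789 probe sets with 1 symbol were tested, and 1621 with several and 5443 with none were not. The number of arrays limits the precision.

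limma 3.58.1 (R 4.3.3; lmFit, eBayes with trend) was fitted to all 8 arrays across all probe sets with 4 group means, two-sided, with Benjamini-Hochberg adjustment at 0.05; the fit was tested on simulated data. A second fit added the array number as a block. Arrays of the same number deviated together from the group means in all 6 pairs of groups (r from 0.401 to 0.640), so the numbers, which come from the labels, were taken to pair the arrays. The array number was tested in the block fit.

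The 9 genes, the lists of relatives and markers and the motifs were chosen with earlier results of these data known. All 9 genes are named. Relatives are named where they passed in delFG1 against full length or in delFG2 against empty vector. Otherwise they are named for the smallest p in their list, and at the ends of a list's range. Of those that passed in full length against empty vector only some are named. Other named genes are the 3 nearest in pattern and those a result turns on. The 3 genes outside the set are those with the largest differences among genes with an unadjusted limma p under 0.01 in either fit. In alike patterns and in the genes outside the choice, predicted, olfactory, vomeronasal and small RNA genes were skipped. Promoter windows and gene order are from RefSeq, GRCm38.p6. Protein sequences are not used here.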

Additional observations from a re-analysis of the deposited data

How the results depend on the processing

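The number of probe sets called depended most on the block. The comparison of delFG2 against empty vector gave 1 call, 110 with the replicate block, 0 without an intensity trend, 2 in the fit of 4 arrays and 0 to 2 with 1 array left out. Of the 9 genes 0 were called, 1 (Tox) with the replicate block and 0 in each fit with an array left out and no block. For delFG1 against full length there were 2 calls, 17 with the replicate block and 1 to 4 with 1 array left out; among the relatives 0, 1 with the replicate block, and 0 with 1 array left out. Full length against empty vector gave 27 calls, 1440 with the replicate block, 17 among above-median signals and 7 to 36 with 1 array left out. The array number gave 2435 calls (1054 to 2878 with 1 array left out), 57.5% of them higher in number 2, but 46.3% after median centring and 49.9% after quantile normalisation. Of the 9 genes it called 2, but 1 with a pseudocount of 16 or quantile normalisation, 0 among above-median signals or without the trend, and 0 to 4 with 1 array left out, Igf2r and Vcam1 being added without either empty vector array. Signs turned for some values that had not passed: Prxl2a with delFG2 was 0.02 after quantile normalisation and -0.10 to 0.09 with 1 array left out, and Gpx8 -0.32 to 0.15. The number difference ran from -0.10 to 0.07 for Thbs4, -0.60 to 0.14 for Chil4 (-0.31 with all arrays, 0.14 without either delFG1 array) and -0.20 to 0.01 for Prxl2a. The choice fixed the sign of delFG1 minus full length for all 9 genes within each array number and under the pseudocount of 16. The sign was also kept under median centring and quantile normalisation. The size was larger in number 1 than in number 2 for all 9 genes, most of all for Chil4 (3.54 against 1.31).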
